A study of Homo sapiens with 6 samples.

Results

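The transcripts described here are those of TRPS1, of 5 transcription factors that drive epithelial-mesenchymal transition (ZEB1, ZEB2, SNAI1, SNAI2 and TWIST1), of the cadherins CDH1 and CDH2, and of the mesenchymal proteins VIM and FN1. Members were chosen by gene symbol: 29 of the 54613 tested probe sets carry one of these 10 symbols, and 0 of the 29 list more than 1 gene. The comparison sets MCF10A cells given miR-221 and miR-222 as a mimic by transfection (the mimic group) against MCF10A cells given the control microRNA, miR-control (the control group). MCF10A is a widely used human breast epithelial cell line that does not form tumours. Each group had 3 biological replicates of this 1 line, and each replicate was hybridised to 1 single-colour array. The values are log2 intensities normalised by robust multi-array average (RMA), which allow a probe set to be compared between arrays but not with another probe set. The mimic itself was not measured by these arrays, and neither its dose nor the time of harvest is stated in the labels.

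In epithelial-mesenchymal transition, cells lose the E-cadherin junctions that hold an epithelium together and take on intermediate filaments and matrix of mesenchymal cells. SNAI and ZEB zinc finger factors bind E-box sequences and repress CDH1, the E-cadherin gene. TRPS1 is an atypical GATA-type zinc finger repressor of mammary epithelium, reported as a target of miR-221 and miR-222 and as a repressor of ZEB2. A microRNA recognises its target transcripts mainly through its seed, and the pairing destabilises them or slows their translation.

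The mature sequences are shown because both microRNAs carry the same seed, bases 2 to 8, given in capitals (RefSeq, GRCh38.p14). The windows are chrX:45746180-45746202 for miR-221-3p and chrX:45747036-45747056 for miR-222-3p, both on the minus strand.
hsa-miR-221-3p: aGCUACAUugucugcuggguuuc
hsa-miR-222-3p: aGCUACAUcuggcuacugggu

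The array medians lay between 7.62 and 7.66 in the mimic group and between 7.59 and 7.64 in the control group. Arrays of 1 group correlated with r from 0.9953 to 0.998 over probe sets, which are not independent; precision is limited by how few arrays there are. The 3' minus 5' log2 signal of ACTB, a measure of RNA integrity, was 0.33 to 0.39 in the mimic arrays and 0.29 to 0.36 in the control arrays, and that of GAPDH 0.02 to 0.04 in the mimic arrays and -0.05 to 0.02 in the control arrays. Markers of the labelled cell type were read: the basal keratin gene KRT5 averaged 11.78 with the mimic and 13.50 in the control, and the epithelial adhesion gene EPCAM 8.66 with the mimic and 10.20 in the control. Levels of different probe sets cannot be set against each other, so this reads the markers between groups and does not rank them.

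Cells given the mimic had less TRPS1 and CDH1 RNA and more ZEB2, SNAI2, VIM and FN1 RNA than control cells. TWIST1 was slightly lower, and ZEB1, SNAI1 and CDH2 did not pass the test. Read at 1 probe set a gene, the one with the highest mean signal, 4 of the 10 genes were higher and 3 lower by limma at a Benjamini-Hochberg adjusted p under 0.05, and the groups did not overlap for these 7. Over all 19775 genes, 30.4% were called, 14.1% higher and 16.3% lower, and the groups did not overlap for 45.6%. Counted by probe set, 14 of the 29 were higher and 7 lower, against 24.8% called over all 54613 probe sets (11.6% higher, 13.1% lower). Over all probe sets the balance turned with array weights (9576 higher, 8622 lower) and after quantile normalization again (7109 higher, 6943 lower). It also turned without mimic replicate 1 (6700 higher, 6614 lower) and without control replicate 3 (6619 higher, 6614 lower). The members' counts were 15 and 7 with array weights and 14 and 7 under each of the others named. The groups were apart at 23 of the 29, against 39.2% of all probe sets. The median log2 difference was 0.12 over the 10 genes and 0.03 over all genes, so the members did not move in 1 direction as a set. In these bulk samples, fewer cells of a type and less RNA per cell cannot be told apart.

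**Figure D1:**
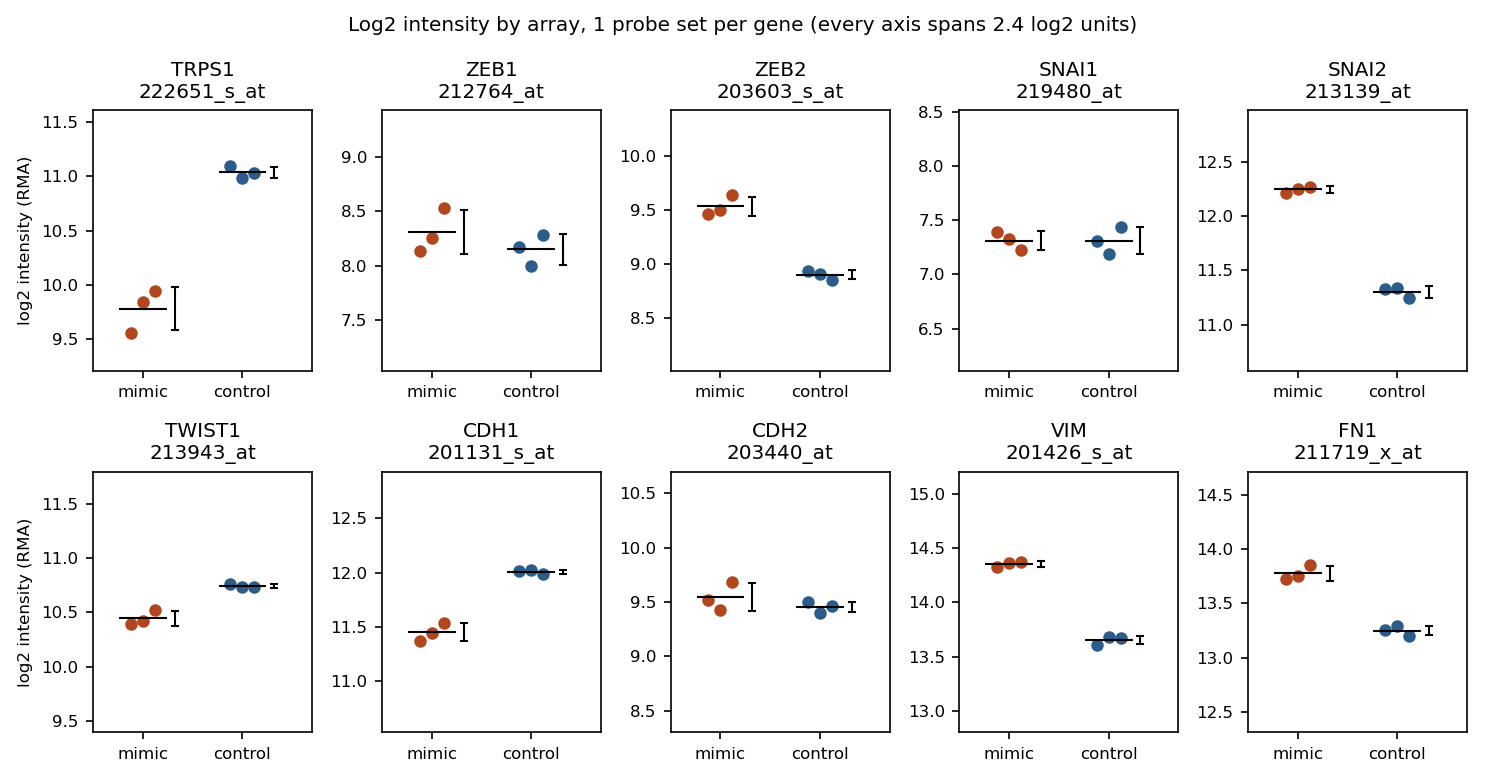
Log2 intensity of the 10 genes on each array (y axis; x axis, mimic and control), 1 probe set per gene; points are arrays, horizontal lines means and bars 1 SD, n = 3 per group. TRPS1, TWIST1 and CDH1 lay lower and ZEB2, SNAI2, VIM and FN1 higher in all 3 mimic arrays, while the groups overlapped for ZEB1, SNAI1 and CDH2.

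TRPS1, the GATA-type repressor, showed the largest difference of the 10 genes. Its brightest probe set (222651_s_at) read 9.56, 9.84 and 9.94 in the mimic arrays and 11.09, 10.99 and 11.03 in the control arrays. All mimic arrays lay below all control arrays, and the mimic arrays were more spread, with an SD of 0.20 against 0.05. The difference was -1.26 ± 0.09 (limma's moderated SE), so the signal was 2.39-fold higher in the control (adjusted p = 2.01e-06). At 218502_s_at the level was 8.54 ± 0.19 with the mimic and 9.95 ± 0.07 in the control (SD, n = 3 each), a difference of -1.41 ± 0.09 (SE). A further probe set, 224218_s_at, gave -1.19 ± 0.09 (SE), close to both. The fourth, 234351_x_at, read 8.88, 8.87 and 8.84 in the mimic arrays and 9.20, 9.21 and 9.15 in the control arrays. Its groups were also apart, but its difference was -0.32 ± 0.06 (SE, adjusted p = 0.00184). The suffix x_at marks probe sets whose probes can bind several transcripts. FN1 211719_x_at, 216442_x_at and 210495_x_at and VIM 1555938_x_at carry it too, as do the probe sets read below for KRT18, KRT8, COL1A1 and DCN.

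The ZEB factors are related zinc finger and homeodomain repressors of CDH1, and only ZEB2 passed the threshold. ZEB2 read 9.46, 9.50 and 9.63 at 203603_s_at in the mimic arrays and 8.93, 8.91 and 8.86 in the control arrays. Its mimic arrays were all higher, by 0.63 ± 0.07 (SE), or 1.55-fold (adjusted p = 3.33e-05). Another 3 ZEB2 probe sets passed, and these are dimmer: their mean signals rank at percentiles 43.0, 26.4 and 17.8 of all probe sets. At 235593_at the mimic arrays read 6.73, 7.22 and 7.60 and the control arrays 5.88, 5.88 and 6.05, a difference of 1.24 ± 0.17 (SE). The mimic arrays of this probe set were widely spread (SD 0.43). 228333_at gave 0.54 ± 0.07 and 233031_at 0.54 ± 0.09 (SE). The fifth, 233033_at, gave 0.06 ± 0.06 (SE, adjusted p = 0.538) and did not pass.

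ZEB1 did not pass at any of its 4 probe sets. At 212764_at it read 8.14, 8.26 and 8.53 in the mimic arrays and 8.17, 7.999 and 8.28 in the control arrays, so the groups overlapped (difference 0.16 ± 0.10 SE, adjusted p = 0.320). At 239952_at the mimic arrays (7.95, 7.91 and 7.78) all lay above the control arrays (7.71, 7.63 and 7.72), with a difference of 0.19 ± 0.07 (SE, adjusted p = 0.0620). That probe set passed without mimic replicate 3 (difference 0.24, adjusted p = 0.0270), with array weights (adjusted p = 0.0179) and without the dimmest probe sets (adjusted p = 0.0379); over its 13 alternatives the adjusted p ran from 0.0179 to 0.196. The other ZEB1 probe sets gave 0.05 ± 0.07 and -0.05 ± 0.06 (SE).

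Among the SNAI factors, E-box repressors of CDH1, SNAI2 (Slug) rose and SNAI1 (Snail) did not pass; each has 1 probe set. SNAI2 read 12.21, 12.25 and 12.27 in the mimic arrays and 11.33, 11.33 and 11.24 in the control arrays. The spread was small on both sides, and the mimic arrays were higher by 0.94 ± 0.06 (SE), 1.92-fold (adjusted p = 7.8e-07). SNAI2 had the largest rise of the 10 genes at the chosen probe sets. SNAI1 read 7.39, 7.32 and 7.22 in the mimic arrays and 7.31, 7.19 and 7.43 in the control arrays, with overlapping groups. Its mean lay at percentile 42.4 of all probe sets, and whether so low a signal lies above background is not known, because no detection calls were used.

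TWIST1, a basic helix-loop-helix inducer of the transition, differed the other way from SNAI2 and ZEB2. It read 10.40, 10.42 and 10.52 in the mimic arrays and 10.76, 10.74 and 10.73 in the control arrays. The groups were apart and the difference was small, -0.30 ± 0.06 (SE), or 1.23-fold higher in the control (adjusted p = 0.00426).

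**Figure D2:**
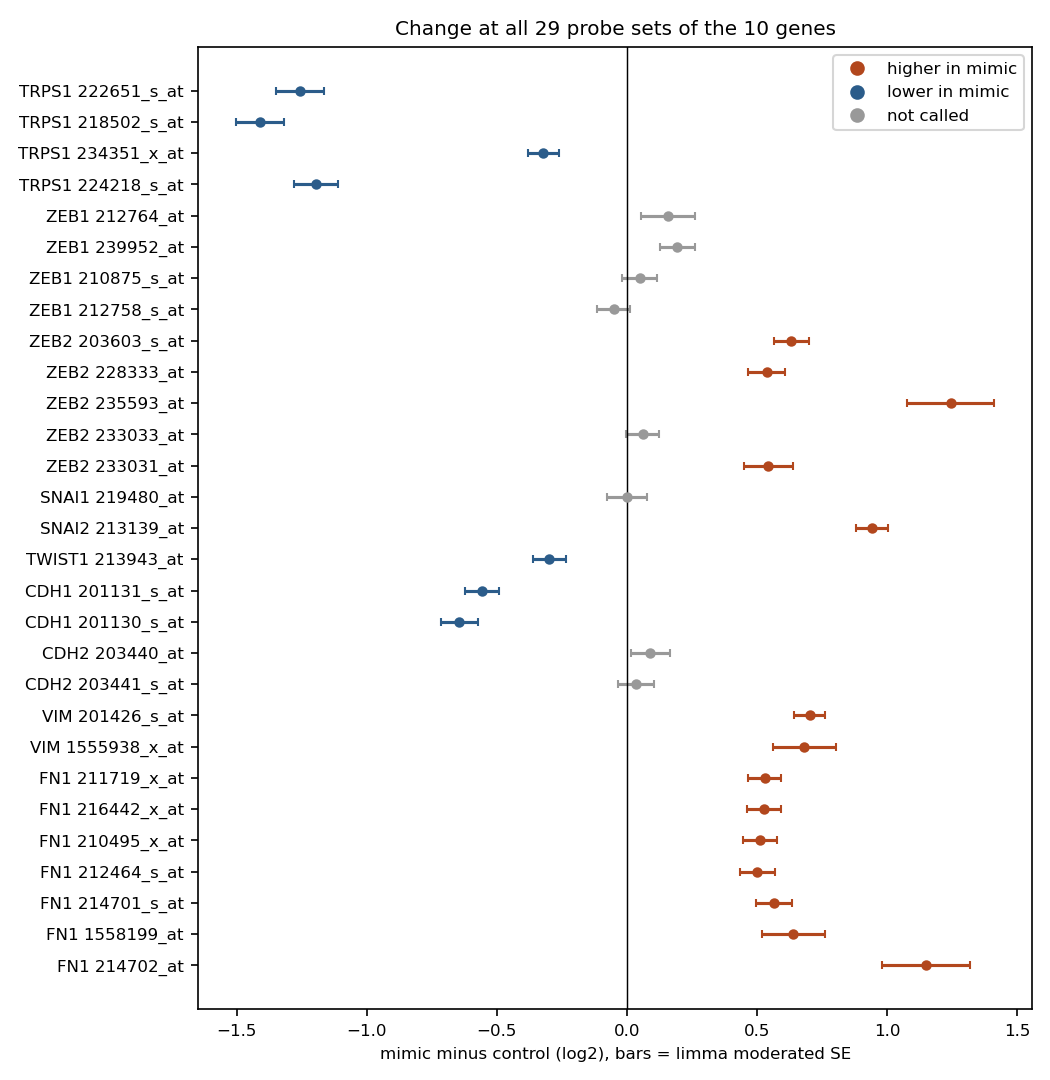
Difference of mimic minus control (x axis, log2; bars are limma's moderated SE, 3 arrays per group) for each of the 29 probe sets (y axis), coloured by call. All 4 TRPS1 and both CDH1 probe sets lie left of 0, all 7 FN1 and both VIM probe sets right of 0, and ZEB1, SNAI1 and CDH2 near 0.

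CDH1, which encodes the E-cadherin of epithelial junctions, read 11.37, 11.44 and 11.54 at 201131_s_at in the mimic arrays and 12.01, 12.02 and 11.98 in the control arrays. Its groups were apart by more than their spread, with a difference of -0.56 ± 0.06 (SE, 1.47-fold higher in the control, adjusted p = 6.9e-05). Its second probe set read 8.86, 8.995 and 8.80 in the mimic arrays and 9.47, 9.62 and 9.49 in the control arrays, a difference of -0.64 ± 0.07 (SE). CDH2, which encodes the N-cadherin of neural and mesenchymal cells, read 9.52, 9.43 and 9.68 at 203440_at in the mimic arrays and 9.50, 9.40 and 9.47 in the control arrays. The CDH2 groups overlapped at both probe sets, and the differences were 0.09 ± 0.08 (SE, adjusted p = 0.445) and 0.03 ± 0.07 (SE, adjusted p = 0.772). Their 95% confidence intervals reached up to 0.25 and 0.19, below the 0.56 by which CDH1 differed.

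VIM, the intermediate filament gene of mesenchymal cells, read 14.32, 14.36 and 14.38 at 201426_s_at in the mimic arrays and 13.61, 13.68 and 13.67 in the control arrays. The mimic arrays were all higher, by 0.70 ± 0.06 (SE, 1.63-fold, adjusted p = 6.11e-06). This probe set lay at percentile 99.7 of signal in these cells. A dim second probe set, 1555938_x_at, read 5.80, 6.13 and 6.38 in the mimic arrays and 5.43, 5.34 and 5.49 in the control arrays (0.68 ± 0.12 SE).

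FN1 encodes fibronectin, a matrix protein that integrins bind. At 211719_x_at it read 13.72, 13.75 and 13.85 in the mimic arrays and 13.25, 13.29 and 13.20 in the control arrays, 0.53 ± 0.06 (SE) or 1.44-fold higher with the mimic (adjusted p = 9.16e-05). All 7 FN1 probe sets passed in the same direction with the groups apart. Of these, 4 lay above percentile 99 of signal and gave differences of 0.50 to 0.53; 214701_s_at gave 0.56 and 1558199_at 0.64. The dimmest, 214702_at, read 6.52, 6.83 and 7.39 in the mimic arrays and 5.65, 5.80 and 5.83 in the control arrays, a difference of 1.15 ± 0.17 (SE). The dim FN1 and ZEB2 probe sets with differences above 1 also had the widest spread between mimic arrays, with SDs of 0.44 and 0.43.

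Pairs of related genes were then compared within each array, since a shift of the difference between 2 genes shows that their signals changed unequally. A dim probe set can respond less than its RNA, so a shift that involves SNAI1 or ZEB1 is one of signal. CDH2 minus CDH1 was -1.85, -2.01 and -1.85 in the mimic arrays and -2.51, -2.63 and -2.52 in the control arrays, so the cadherins shifted relative to each other by 0.65 in favour of CDH2. As CDH2 did not pass on its own, CDH1 was the cadherin of the pair that changed past the threshold. ZEB2 minus ZEB1 was 1.33, 1.24 and 1.10 in the mimic arrays and 0.76, 0.91 and 0.57 in the control arrays, a shift of 0.47. SNAI2 minus SNAI1 was 4.82, 4.93 and 5.05 in the mimic arrays and 4.02, 4.15 and 3.81 in the control arrays, a shift of 0.94. The groups were apart for all 3 pairs. Each gave p = 0.10 in an exact two-sided permutation test (0.10 adjusted over the 3 pairs), which is the smallest p that this test can give with 3 arrays against 3, so no pair could pass 0.05 by it.

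**Figure D3:**
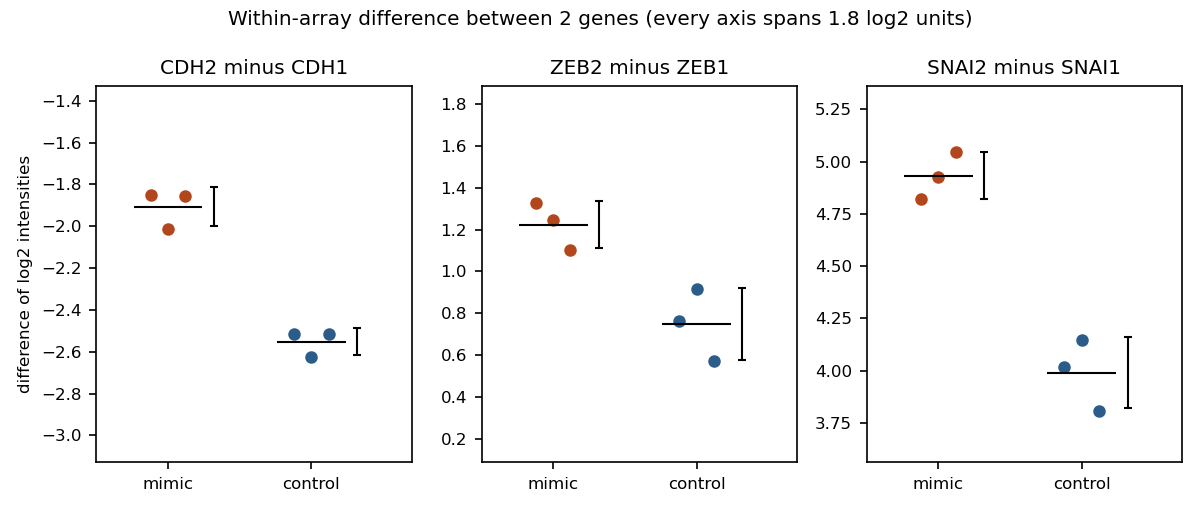
Difference of log2 intensities between 2 genes on the same array (y axis) for mimic and control arrays (x axis); points are arrays, lines means and bars 1 SD, n = 3 per group. Only the shift between groups can be read, which is 0.65, 0.47 and 0.94 from left to right; the position on the y axis also depends on the probes.

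Because TRPS1 fell and ZEB2 rose, the 300 bases around the ZEB2 start (250 before and 50 after) were searched for the letters of a GATA site (GATA preceded by A or T and followed by A or G) on both strands. They hold 1 match, AGATAG, which begins 134 bases before the start and is in capitals. Of all 35116 such RefSeq windows, 25.0% hold at least 1 match, and 0 were found in the windows of ZEB1, CDH2, VIM and FN1. The window is chr2:144520070-144520369, minus strand, GRCh38.p14.
ZEB2: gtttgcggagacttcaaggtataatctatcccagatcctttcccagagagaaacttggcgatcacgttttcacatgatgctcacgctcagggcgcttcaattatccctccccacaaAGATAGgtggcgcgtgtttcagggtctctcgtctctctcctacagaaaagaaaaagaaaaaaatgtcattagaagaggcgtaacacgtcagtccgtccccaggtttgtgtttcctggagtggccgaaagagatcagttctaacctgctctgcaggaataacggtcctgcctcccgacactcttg
For contrast, ZEB1 has 7 windows; the one printed was chosen for having the most matches to CACCTG (read on either strand), the E-box that ZEB and SNAI factors bind, which are in capitals. It holds 3 matches, at chr10:31318966-31319265, plus strand, while 20.6% of all windows hold at least 1. Another ZEB1 window holds 1 match and the rest hold 0. As the best of 7, the printed window cannot be read against that share. The windows of ZEB2, CDH2, VIM and FN1 hold 0. These matches describe letters and not binding. RefSeq windows were matched for 5 of the 10 members; TRPS1, SNAI1, SNAI2, TWIST1 and CDH1 are named only.
ZEB1: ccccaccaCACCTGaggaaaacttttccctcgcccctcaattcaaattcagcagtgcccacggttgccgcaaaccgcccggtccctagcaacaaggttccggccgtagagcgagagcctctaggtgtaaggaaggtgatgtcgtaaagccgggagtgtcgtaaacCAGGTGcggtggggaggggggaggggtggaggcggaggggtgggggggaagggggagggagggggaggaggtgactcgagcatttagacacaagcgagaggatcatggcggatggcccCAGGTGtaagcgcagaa

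Of 10 measured further inducers of the transition, 6 were lower and 0 higher in the mimic arrays. The median difference was -0.45 against 0.03 over all genes, of which 16.3% were called lower and 14.1% higher. FOXC2, a forkhead factor, was 2.24-fold higher in the control, and HMGA2, a chromatin architectural protein, 2.07-fold, HMGA2 at 2 of its 9 probe sets. TWIST2, the close relative of TWIST1, had a difference of -0.77 ± 0.07 (SE), and LEF1, a Wnt pathway factor, -0.65 ± 0.07 (SE). Of 10 factors known to maintain epithelia, 4 were lower and 1 higher. ESRP1, the epithelial splicing regulator (1.82-fold higher in the control), the grainyhead factors GRHL1 (1.71-fold) and GRHL3 (1.29-fold), and OVOL1 (1.30-fold), a zinc finger factor, fell, OVOL1 at 1 of its 2 probe sets. KLF4, a zinc finger factor of barrier epithelia, rose by 0.80 ± 0.07 (SE). ELF3 was not called at the probe set used (0.10 ± 0.06 SE) but was lower at 2 of its 3 probe sets. EHF, also not called, was lower at 1 of its 6. With each gene's probe sets averaged, 5 of these 10 factors were lower and 1 higher.

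Junction partners of the cadherins moved both ways, with 5 of 10 lower and 2 higher, against 16.3% and 14.1% of all genes. With each gene's probe sets averaged, 3 of 10 were lower. JUP, among the 5 lower, lost its call under 3 of 14 alternatives (adjusted p up to 0.0651). The nectin genes NECTIN2 (-0.65 ± 0.06 SE) and NECTIN1 (-0.36 ± 0.08 SE) fell, NECTIN1 at 1 of its 4 probe sets. CTNNB1, which encodes the beta-catenin that binds cadherin tails, had a difference of -0.31 ± 0.07 (SE), and TJP1, a junction scaffold, one of 0.55 ± 0.07 (SE). AFDN, the afadin that ties nectins to actin, was higher by 0.31 ± 0.07 (SE) at the probe set used, though 1 of its 7 probe sets was lower. The calls of CTNNB1, NECTIN1 and AFDN were lost when each gene's probe sets were averaged (adjusted p = 0.117, 0.225 and 0.159), and that of AFDN also without control replicate 1 and at an adjusted p under 0.01. Of 7 measured other cadherins, read at 1 probe set each, only CDH3, the P-cadherin of basal epithelium, was called. CDH3 averaged 11.89 ± 0.03 for the mimic and 12.47 ± 0.06 for the control (SD, n = 3 each), a difference of -0.58 against -0.56 for CDH1. CDH6 missed the threshold at its brightest probe set (0.18 ± 0.08 SE, limma adjusted p = 0.154), but 1 of its 6 probe sets was called higher.

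Of 12 mesenchymal effectors, 9 were lower and 1 higher, with a median difference of -0.44. At an adjusted p under 0.01, 7 were lower and 0 higher. Among the 9, the integrin genes ITGA5 and ITGB1 lost their calls under 7 and 5 of 14 alternatives. LOXL2 lost its call when its probe sets were averaged (adjusted p = 0.113). SPARC, a matricellular protein (-1.95 ± 0.07 SE), TNC, the matrix glycoprotein tenascin C (-1.35 ± 0.13 SE), the actin-binding protein gene TAGLN (-1.14 ± 0.09 SE) and the calcium-binding protein gene S100A4 (-1.06 ± 0.06 SE) fell while VIM and FN1 rose. TNC did so at 1 of its 3 probe sets. LOX, the collagen cross-linking oxidase, was the member called higher, by 0.21 ± 0.06 (SE, adjusted p = 0.0314). The LOX call was lost under 8 of 14 alternatives, among them the replicate block, median centring and leaving out mimic replicate 2 or 3 or any control array. Over all 14 alternatives the limma adjusted p of LOX ran from 0.00199 to 0.105. Of the 6 GATA factors, the family whose DNA site TRPS1 shares, 2 were lower and 0 higher. GATA3, the luminal mammary factor, fell at all 3 of its probe sets (-0.48 ± 0.06 SE at the brightest), and GATA6, at 1 of its 2, had a difference of -0.93 ± 0.12 (SE). Of 8 corepressors that work with SNAI or ZEB factors, 2 were lower and 1 higher: the methyltransferase gene EZH2 (1.60-fold higher in the control), CTBP2 (1.57-fold higher in the control) and the demethylase gene KDM1A (1.23-fold higher with the mimic). The KDM1A call was lost under 4 of 14 alternatives: at an adjusted p under 0.01 and without mimic replicate 2, mimic replicate 3 or control replicate 3. Over all 14 the limma adjusted p of KDM1A ran from 0.00178 to 0.0614. The shares called among GATA factors and corepressors are near the 30.4% of all genes.

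**Figure D4:**
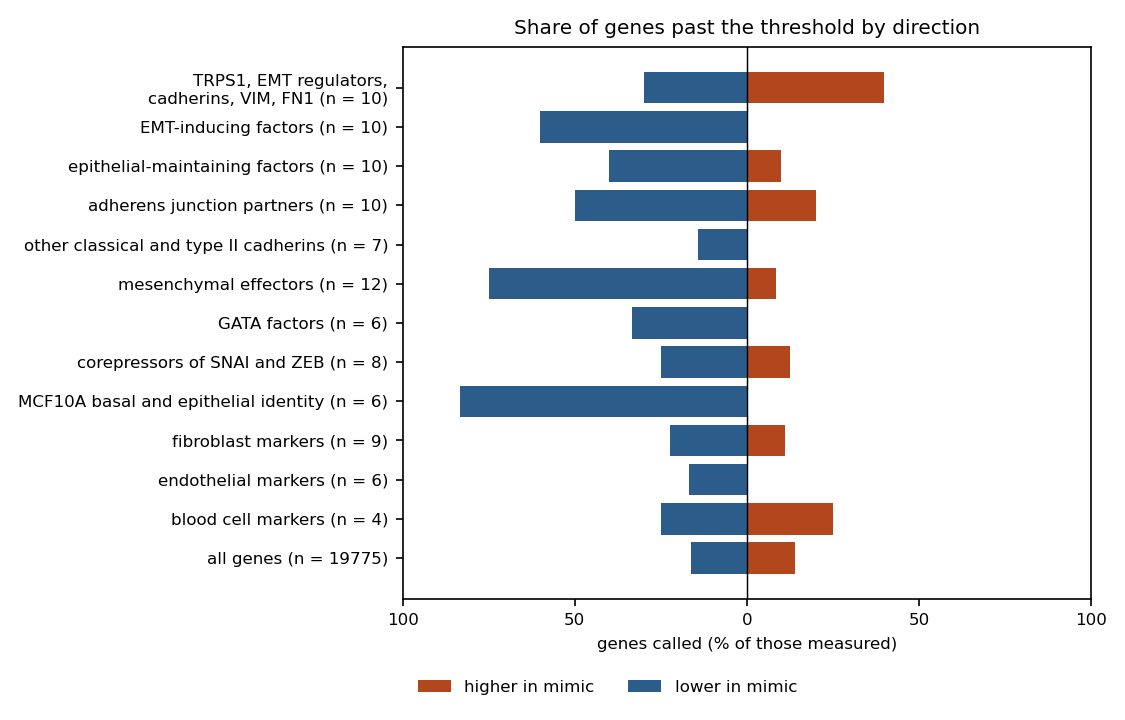
Percent of measured genes called higher (right) or lower (left) with the mimic (x axis, limma adjusted p under 0.05), for the 10 genes, each list and all 19775 genes (y axis). Of the 10 genes 4 were higher and 3 lower; of the 12 mesenchymal effectors 1 was higher and 9 lower.

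Markers of the cell line and of other cells were read beside these results, as VIM and FN1 are also fibroblast transcripts. Over all genes, 30.4% were called, 14.1% higher and 16.3% lower. Of 6 measured epithelial identity markers of MCF10A, 5 fell: KRT14 (4.70-fold higher in the control), KRT5 (3.31-fold), EPCAM (2.91-fold), KRT18 (1.99-fold) and KRT8 (1.46-fold). ITGA6, an integrin of the basement membrane contact, did not pass (-0.0074 ± 0.06 SE). Of 9 fibroblast markers, 1 was higher and 2 lower, a share called near that of all genes. The summed linear signal of the 9 markers was 15700 to 16600 in the mimic arrays and 7630 to 8070 in the control arrays. DCN, a matrix proteoglycan gene, was the marker that rose (3.16-fold). Without DCN, the other 8 markers summed to 2460 to 2610 in the mimic arrays and 3480 to 3570 in the control arrays, the opposite direction. The fibroblast collagen genes COL1A1 (0.08 ± 0.06 SE), COL1A2 (0.06 ± 0.07 SE) and COL3A1 (0.11 ± 0.08 SE) did not pass, and FAP fell (-1.60 ± 0.08 SE). LUM was called lower at 1 of its 2 probe sets, with means of 4.09 for the mimic and 5.15 for the control, at percentile 4.16 of signal, so whether it lies above background is not known. Of 6 endothelial markers, 1 was lower (KDR, -1.48 ± 0.12 SE) and 0 higher. Their summed signals were 1700 to 1800 in the mimic and 1970 to 2170 in the control arrays. The lower sum rests on KDR alone. Each of the 5 markers not called had a higher mean with the mimic, by 0.03 to 0.16. Of 4 measured blood cell markers, CD14 was lower (-1.15 ± 0.08 SE) and ITGAM higher (0.21 ± 0.07 SE, adjusted p = 0.0483). Their summed signals were 1190 to 1270 in the mimic and 1680 to 1720 in the control arrays. That lower sum rests on CD14 alone. The 2 markers not called had all mimic arrays above all control arrays, with differences of 0.09 and 0.15. No marker can read 0 on the RMA scale, and the part of other cells in the VIM and FN1 results was not tested.

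The genes with array patterns most like that of TRPS1 were RFX5, GMNN, SVIL, SCNN1G and GPSM2. Likeness was the root mean square difference between log2 values centred on each gene's mean, over the 6 arrays, among 9887 genes of at least median signal. It was 0.04 for RFX5, an activator of MHC class II genes, and 0.06 for GPSM2, a spindle orientation protein. GMNN encodes the replication inhibitor geminin, SVIL an actin-binding protein and SCNN1G a subunit of the epithelial sodium channel. RFX5 read 8.98, 9.32 and 9.31 in the mimic arrays and 10.53, 10.47 and 10.50 in the control arrays. As in TRPS1, mimic replicate 1 was the lowest array. This ranking describes 6 arrays in 2 groups, and mostly finds genes with a difference of the same size (-1.26 to -1.31).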

How the data were processed

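RNA of 6 cultures of MCF10A cells, 3 per group by their labels, was measured on 1 array each. The deposited values are log2 intensities that the authors normalised with RMA, per the submitters' processing notes; its version is not given in the sources used here, and that they are log2 was inferred from their range. RMA makes the distributions of arrays alike and compresses differences between dim values. Of 54675 probe sets, 62 controls were left out. Gene symbols came from the platform annotation, and 41091 probe sets had exactly 1.

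Mimic was compared with control by limma 3.58.1 (lmFit and eBayes) in R 4.3.3, with Benjamini-Hochberg adjustment over all 54613 probe sets and a threshold of 0.05. Each gene was read at its probe set with the highest mean, and all probe sets of the 10 genes are given. No test was made of a list. The text names all 10 members and the 5 genes most like TRPS1. From each of 11 lists it names up to 4 members past the threshold with the largest change. KRT8, ITGA6, LOX, GRHL3, CTNNB1, COL1A1, COL1A2, COL3A1, ITGA5, ITGB1, LOXL2, CDH6, JUP, ELF3 and EHF were named after their values were seen. Members and lists were chosen with earlier results of these data known. List genes without a probe set of 1 symbol were not analysed here. The fit was tested on simulated data. Alternatives were a filter on the 40% dimmest probe sets, quantile normalization again, median centring, eBayes with trend and robust, array weights, a replicate block, a threshold of 0.01, averaged probe sets, and leaving out each array.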

Additional observations from a re-analysis of the deposited data

How the results depend on the processing

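Of 381 values of the 29 probe sets under alternatives, 372 had the direction and the call reported. The calls for TRPS1, ZEB2, SNAI2, TWIST1, CDH1, VIM and FN1 were among them in every alternative run, and 7 of the 10 genes were called each time. For the brightest TRPS1 probe set the difference ranged from -1.34 to -1.05. The exceptions were 3 values of ZEB1 239952_at, given above, and sign changes of uncalled values near 0. SNAI1 was -0.032 after quantile normalization again and -0.028 with arrays centred on their medians, and between -0.060 and 0.062 when single arrays were left out (-0.038 without mimic replicate 1, -0.0048 without mimic replicate 2). CDH2 203441_s_at ranged from -0.0081 without control replicate 3 to 0.089 without control replicate 2. The cause was not tested. Of the 29 probe sets, 23 remained for testing without the dimmest.

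Of the blood cell markers, CD14 and ITGAM were called; the number was 1 with arrays centred, with eBayes trend and robust, with the replicate block and at an adjusted p under 0.01, and 1 to 2 when single arrays were left out. The ITGAM call was lost under 10 of its 14 alternatives. The totals called in the other lists stayed within 1.5 times, but the single rises among mesenchymal effectors (LOX) and corepressors (KDM1A) were lost as given above.

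Same-numbered arrays did not deviate together (r = -0.11, 0.08 and 0.08), so the numbers were not taken as pairing; with the replicate block 13372 probe sets were called, against 13523 without it, and 21 of the 29. The block gave the same shifts of the gene pairs, 0.65 for CDH2 minus CDH1, with p = 0.25 in an exact sign-flip test, the smallest that 3 pairs can give. Dim probe sets limit what can be said of SNAI1, of part of ZEB2, of LUM and of the second VIM probe set.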
